A study of Mus musculus with 3 samples.

Results

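Pericytes and vascular mural cells of the mouse ovary were described here from 1 deposited single-cell table. A cell was taken as a member when, in the deposited natural log values, *Rgs5* was at least 1, *Notch3* was above 0, *Inha* and *Cyp17a1* were each under 2, and *Ptprc*, *Pecam1* and *Cdh5* were 0. The rule selected 336 of 31776 cells, or 1.06% (0.948 to 1.18%, exact 95% binomial interval). The cell barcodes end in 1, 2 or 3, and the members numbered 97 of 10384 cells of barcode set 1 (0.934%), 120 of 9917 cells of set 2 (1.21%) and 119 of 11475 cells of set 3 (1.04%).

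The samples are 3 droplet (10x Genomics) libraries of whole mouse ovary, labelled as 0, 1 and 6 h after human chorionic gonadotropin (hCG), the hormone that sets off ovulation, with 1 library per time point. The study's text describes juvenile mice treated with pregnant mare serum gonadotropin, which acts like FSH, and names no hCG for these ovaries. The library names also end in 1, 2 and 3, but no source used here states that the barcode endings follow them, so the sets are given by number and without a time point. With 1 library per time point no test was made, and every interval below covers counting error only.

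Mural cells wrap the endothelial tube of blood vessels. Pericytes sit on capillaries inside the basement membrane, which they help to build, and are recruited by endothelial PDGF-B acting on the receptor encoded by *Pdgfrb*. Vascular smooth muscle cells lie around arterioles and larger vessels, carry the contractile apparatus and respond to vasoactive hormones and to nitric oxide through cGMP. In the ovary, the vessels of the theca layer supply each follicle, and the granulosa layer has no vessels until ovulation.

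Molecules were counted by unique molecular identifiers (UMIs). A gene's level is its UMIs per 10000, taken in each cell and averaged over cells. The members held 1930325 UMIs. The median member had 4974 UMIs, with a range of 650 to 38352, and 2132 genes. The other cells had a median of 6362 UMIs. Among all cells, 112 barcode sequences occurred in more than 1 set, and none of the members carried one. Intervals of levels and ratios are exact for summed UMIs and are too narrow for a mean over cells of unequal depth.

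*Rgs5*, a GTPase-activating protein that turns off G protein signalling, and *Notch3*, the Notch receptor of mural cells, chose the members, so their levels are only described. The members were chosen by these values. In sets 1, 2 and 3 *Rgs5* stood at 35.7, 36.0 and 26.7, and *Notch3* at 5.97, 6.5 and 7.29. Before the other conditions, 602 cells had *Rgs5* at 1 or above. The condition on *Notch3* alone removed 120 cells that met all others, and the condition on *Inha* removed 27. The 20 members with *Rgs5* from 1 to 1.5 had *Pdgfrb* at 12.5, *Acta2* at 32.9 and the stromal genes *Dcn* and *Pdgfra* at 4.27 and 1.39. The 13 cells with *Rgs5* above 0 but under 1 that met every other condition had *Pdgfrb* at 4.92, *Acta2* at 88.2, *Dcn* at 5.69 and *Pdgfra* at 1.01, so the cells on both sides of the threshold were close in these stromal genes. All members together had *Dcn* at 1.00 and *Pdgfra* at 0.224.

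The members carried pericyte genes that the rule had not used. *Pdgfrb* stood at 8.55, 8.48 and 9.44 in sets 1, 2 and 3, against 0.540, 0.744 and 0.571 in all other cells. *Ndufa4l2*, which encodes a mitochondrial protein induced by low oxygen, stood at 12.3, 11 and 8.22, against 0.111, 0.111 and 0.0736. *Cox4i2*, an isoform of a subunit of cytochrome oxidase, stood at 7.42, 5.78 and 4.58, against 0.122, 0.120 and 0.0677. In none of these 3 genes did a member set come near the level of the other cells. *Abcc9* and *Kcnj8*, which encode the regulatory and pore subunits of the ATP-sensitive potassium channel of vascular cells, were at 5.63, 7.05 and 5.63 and at 2.07, 2.40 and 1.54. *Higd1b* was at 2.17, 2.33 and 1.70, or 135-fold to 180-fold its level in the other cells. *Cspg4*, the NG2 proteoglycan, was at 1.64, 1.58 and 1.25.

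A gene was counted as higher when its level was at least 2-fold that of the comparison cells in each of the 3 sets, with at least 30 UMIs over both groups in each set. Against all other cells, 729 of 14319 genes (5.09%) were higher and 571 (3.99%) were lower. Of the pericyte list, 13 of the 14 genes tested were higher, with a median ratio of 23.1 against 1.05 over all genes tested. The exception was *Anpep*, with 4, 0 and 2 UMIs in the members of sets 1, 2 and 3. *Vtn*, *Notch3* and *Rgs5* were not tested, the first for its low UMIs and the others because they chose the cells. Of the list of contractile smooth muscle genes, 24 of 25 were higher, with a median ratio of 8.07. *Myl6*, a myosin light chain made in most cells, was the exception. The members were selected on genes measured in this contrast, so these counts describe the members and lend no support to their name.

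The contractile genes were at high levels. In sets 1, 2 and 3, *Acta2*, smooth muscle actin, stood at 73.9, 75.5 and 89.8. *Tagln*, an actin-binding protein, stood at 27.3, 31.6 and 33.5. *Myh11*, the myosin heavy chain of smooth muscle, stood at 6.93, 6.25 and 5.03. These means cover members with very unlike levels: *Acta2* ranged from 0 to 514.6 per cell, and 276 of the 336 members had at least 1 UMI of it.

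Shares of cells were compared after thinning each cell to 3000 UMIs, which left out 55 members as too shallow. *Ndufa4l2* was then found in 86.0%, 85.0% and 84.2% of members in sets 1, 2 and 3, and *Pdgfrb* in 84.9%, 71.0% and 80.0%. Endothelial cells (*Pecam1* and *Cdh5* above 0 and *Notch3* at 0; 1307 cells, median 5831 UMIs), which should lack these genes, had *Ndufa4l2* in 0.554%, 0.382% and 0.702% of cells and *Pdgfrb* in 1.66%, 0.763% and 2.46%. *Acta2* was found in 77.9%, 73.0% and 96.8% of members and in 11.6%, 14.7% and 14.7% of endothelial cells. *Tagln* was found in 45.3%, 51.0% and 65.3% of members, while its share in endothelial cells went from 3.32% to 11.1% to 25.3%. The part that free *Tagln* RNA has in its higher share in set 3 was not tested. Before thinning, *Tagln* was found in 49.5%, 50.8% and 63.0% of members.

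Markers of other cell types were then summed. The 13 endothelial markers outside the rule summed to 1.10, 1.11 and 1.65 UMIs per 10000 in the members and to 52.7, 53.3 and 55.4 in endothelial cells, and *Tie1*, *Robo4* and *Erg* had no UMI in any member. Of these 13 genes, 4 were lower than in the other cells, namely *Kdr*, *Flt1*, *Egfl7* and *Cldn5*. The 9 myeloid markers summed to 0.246 or less, with *Adgre1* and *Tyrobp* at 0, and the 6 oocyte markers to 0.0629 or less. Granulosa markers summed to 5.86, 7.04 and 2.76 in the members, against 3.72, 4.79 and 1.92 in endothelial cells and 44.0, 50.3 and 12.6 in all other cells. Theca and steroidogenic markers summed to 4.27, 8.03 and 5.17, against 49.4, 59.8 and 38.0 in the other cells. The fibroblast and stroma markers summed to 24.2, 20.1 and 16.7 in the members and to 4.11, 3.42 and 2.65 in endothelial cells. They summed to 89.9, 89.3 and 59.6 in 5599 fibroblast and stroma cells. Those cells had *Pdgfra* and *Dcn* above 0, *Rgs5* and *Notch3* at 0, and the members' limits on the other genes of the rule. Of 13 fibroblast and stroma markers tested against all other cells, 6 were lower, with a median ratio of 0.366. Only *Lamc3*, a laminin chain, was higher, at 1.17, 1.14 and 0.548. Of 12 granulosa markers tested, 8 were lower, with a median ratio of 0.116. Only *Gatm*, an enzyme of creatine synthesis, was higher, at 1.67, 1.53 and 0.615, against 0.220, 0.307 and 0.174. Erythroid, lymphoid, epithelial and Schwann cell markers each summed to 0.254 or less.

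**Figure D1:**
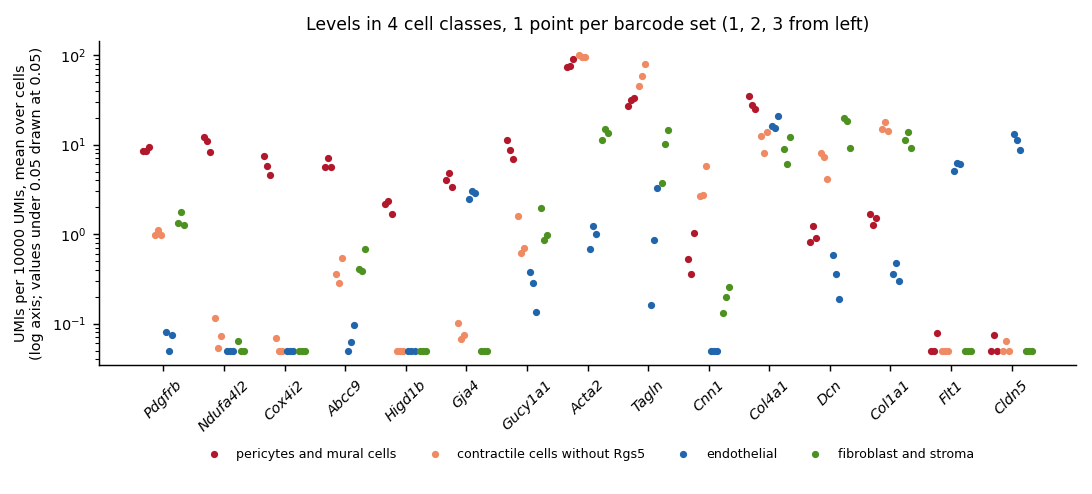
Levels (UMIs per 10000 UMIs, mean over cells, log axis; values under 0.05 drawn at 0.05) of 15 genes in 4 groups of cells, with 1 point for each barcode set in the order 1, 2, 3 from the left and no error bars. *Pdgfrb*, *Ndufa4l2*, *Cox4i2*, *Abcc9* and *Higd1b* were highest in the pericytes and mural cells in all 3 sets. *Gja4* also reached 2.49 to 3.0 in endothelial cells. *Dcn* and *Col1a1* were higher in contractile cells without *Rgs5* and in fibroblasts, groups that can share cells.

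The 20 genes with the largest ratios to the other cells, ranked by the bound nearest to 1, were led by *Olfr558*, a G protein-coupled receptor of the olfactory family. *Olfr558* stood at 3.59, 1.77 and 3.50, or 312-fold, 150-fold and 188-fold its level in the other cells. *Mustn1*, a small nuclear protein of muscle, stood at 6.4, 6.70 and 5.45, or 174-fold, 165-fold and 102-fold. *Slc38a11*, an amino acid transporter, was at 0.920, 0.423 and 0.501. *Rergl*, a small GTPase of the Ras family, was at 2.96, 1.46 and 0.313, so its level differed more between sets than that of *Slc38a11*. *Htr1b*, a serotonin receptor, was at 0.346, 0.502 and 0.712, or 87.1-fold, 88.0-fold and 92.5-fold. *Pgf*, placental growth factor, was at 0.702, 0.518 and 0.703. *Ntf3*, the neurotrophin NT-3, was at 0.272, 0.401 and 0.372. The others were *Higd1b*, *Ndufa4l2*, *Cox4i2*, *Inpp4b*, *Plce1*, *Map3k7cl*, *Rasl12*, *Emid1*, *Rgs4*, *Nrarp*, *Cspg4*, *Insc* and *Casq2*.

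The ovary also holds contractile cells outside vessels, so the members were set beside 1180 contractile cells without *Rgs5*. These had *Rgs5* at 0, *Myh11* above 0, *Acta2* at least 2 and the members' limits on *Inha*, *Cyp17a1*, *Ptprc*, *Pecam1* and *Cdh5*. No condition was put on *Notch3*. A cell could also count among the fibroblast and stroma cells, since neither rule excluded the other. The contractile cells numbered 401, 379 and 400 in sets 1, 2 and 3. Their median depth was 6988 UMIs. *Rgs5* and, in the members alone, *Notch3* define the contrast. *Acta2* and *Myh11* define the comparison cells, and none of these genes was counted. Of 8132 genes, 363 (4.46%) were higher in the members and 317 (3.9%) were lower. The counts were 189 and 177 when every cell was thinned to 3000 UMIs. This comparison and the one with all other cells share the members.

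All 11 pericyte genes tested were higher in the members than in these cells. The members had to hold *Rgs5* and the contractile cells to lack it. Genes with few UMIs in the contractile cells, such as *Higd1b*, were tested only through the members. Counts of listed genes in this contrast are therefore only described and lend no support to the members' name. *Cox4i2* was 108-fold higher in set 1 (63.9 to 200), 193-fold in set 2 (97.1 to 451) and 232-fold in set 3 (116 to 543). *Ndufa4l2* was 105-fold, 206-fold and 112-fold higher, and *Higd1b*, with few UMIs in the contractile cells, 269-fold (73.0 to 2250), 100-fold (42.1 to 314) and 183-fold (60.7 to 904). *Pdgfrb*, which the contractile cells also carried at 0.969, 1.10 and 0.979, was 8.83-fold, 7.68-fold and 9.64-fold higher. *Kcnj8* was 42.9-fold (24.7 to 79.5), 22-fold (15.2 to 32.4) and 6.21-fold (4.50 to 8.55) higher, and its level in the contractile cells went from 0.0482 to 0.109 to 0.249. *Gja4*, the gap junction protein connexin 37, was 39.5-fold, 70.9-fold and 45.5-fold higher. *Esam* and *Nostrin*, known from endothelial cells as an adhesion molecule and a partner of nitric oxide synthase, were at 3.44, 3.62 and 3.91 and at 1.39, 1.61 and 0.907, against at most 0.0783 and 0.00568 in the contractile cells. *Gatm* was 37.0-fold, 28.0-fold and 21.6-fold higher. The other genes among the 10 of largest ratio were *Tspan15*, *Olfr558*, *Nrarp* and *Inpp4b*.

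The Notch pathway passes a signal from ligands on one cell to receptors on its neighbour, and its targets include the *Hes* and *Hey* repressors. The members had to hold *Notch3* and the contractile cells did not, so the Notch genes are only described. The part of this choice in their levels was not tested. Of 7 genes of the list tested, 5 were higher and none lower, with a median ratio of 2.87 against 1.01 over all genes. The ligand *Jag1* stood at 0.984, 0.821 and 1.2, against 0.182, 0.161 and 0.161. The receptor *Notch1* was at 0.720, 1.29 and 0.783, against 0.0905, 0.236 and 0.0595. The target *Heyl* was 3.40-fold, 2.11-fold and 3.28-fold higher, and *Hes1* 3.17-fold, 2.18-fold and 3.08-fold. *Nrarp*, a target that damps the pathway, was 76.7-fold, 75.7-fold and 44.8-fold higher. *Notch2* and *Rbpj* were neither higher nor lower.

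Nitric oxide relaxes vessels through soluble guanylate cyclase, whose subunits are encoded by *Gucy1a1* and *Gucy1b1*. *Gucy1a1* stood at 11.3, 8.79 and 6.87 in the members and at 1.58, 0.623 and 0.693 in the contractile cells. *Gucy1b1* stood at 3.92, 4.06 and 3.08, against 0.247, 0.135 and 0.129. *Prkg1*, the cGMP-dependent kinase, was 3.94-fold, 3.9-fold and 3.53-fold higher. The phosphodiesterases *Pde3a* and *Pde5a*, which break down cyclic nucleotides, were 6.86-fold to 10.6-fold and 2.04-fold to 3.85-fold higher. *Mrvi1*, a target of the kinase, did not reach 2-fold in any set (1.12 to 1.40). In all, 5 of the 7 genes tested were higher and none was lower, with a median ratio of 3.79.

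Of 12 ion channel genes tested, 7 were higher and none lower, with a median ratio of 3.8 against 1.01 over all genes. *Trpc6*, a cation channel opened by receptor signalling, was 44.5-fold, 20.3-fold and 20.3-fold higher. *Ano1*, the calcium-activated chloride channel, was 30.6-fold, 45.1-fold and 52.2-fold higher. *Cacna1c*, the pore of the L-type calcium channel, was 3.03-fold, 2.02-fold and 4.17-fold higher, and *Kcnmb1* did not differ by 2-fold in all sets. Few vasoactive receptors had enough UMIs: of 6 tested none was higher, and *Ramp1* and *Ramp2*, partners of the calcitonin receptor-like receptor, were lower. The endothelin receptor *Ednra* stood at 1.92, 1.33 and 1.26, against 1.40, 0.747 and 0.510. The other endothelin receptor, *Ednrb*, was lower than in the contractile cells in set 1 (0.248-fold) and set 2 (0.408-fold) and higher in set 3 (2.86-fold, 2.24 to 3.64).

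Among matrix genes, *Col18a1*, a basement membrane collagen, was 26.7-fold, 18.2-fold and 10.7-fold higher. *Itga7*, a laminin receptor of muscle, was 14.6-fold, 9.11-fold and 14.2-fold higher, and *Lamc1*, a laminin chain, 2.09-fold, 2.23-fold and 3.09-fold. *Col4a1*, a chain of type IV collagen, stood at 34.9, 27.8 and 25 in the members but missed 2-fold in set 3 (1.81, 1.71 to 1.92). *Hspg2*, perlecan, was lower, at 0.482, 0.372 and 0.445 against 1.80, 1.71 and 2.12. In all, 3 of 20 genes of this list were higher and 2 lower, with a median ratio of 1.39.

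Of 10 transcription factors of the mural list tested, 7 were higher and none lower, with a median ratio of 3.2 against 1.01 over all genes. *Ebf1* stood at 6.85, 7.55 and 7.99, against 0.804, 0.456 and 0.266. *Mef2c*, a factor of muscle genes, stood at 13.7, 8.68 and 10.3, against 1.68, 1.70 and 1.11. *Epas1*, which encodes HIF-2 alpha, was 15.2-fold, 13.6-fold and 13.3-fold higher. *Tbx2* and *Foxs1* were 6.71-fold to 11.9-fold and 2.51-fold to 4.06-fold higher. *Myocd*, the coactivator that turns on contractile genes, was lower, at 0.356, 0.275 and 0.281 against 0.842, 0.787 and 1.35, in cells that had to hold *Myh11* and *Acta2*. Among secreted factors, *Angpt2*, a ligand of the endothelial receptor TIE2, was 5.45-fold, 5.65-fold and 15-fold higher, and *Vegfd*, a lymphatic growth factor, was lower, at 0.0156, 0.0926 and 0.0643 against 0.864, 0.842 and 1.32.

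The contractile cells had to hold *Myh11* and *Acta2* and the members did not: 276 of the 336 members held *Acta2* and 182 held *Myh11*. Lower values of contractile genes in the members are therefore set in part by how the cells were chosen, and are only described. Of the list, 7 of 21 genes tested were higher, 2 lower and 12 neither, with a median ratio of 1.17. *Myl9*, the regulatory myosin light chain, was 0.805-fold, 0.921-fold and 0.972-fold its level in the contractile cells. *Cnn1*, calponin, was lower, at 0.527, 0.360 and 1.03 against 2.68, 2.71 and 5.75, and *Actg2*, the actin of visceral muscle, at 0.775, 1.10 and 0.897 against 5.42, 4.67 and 8.98. In the members of the highest contractile tertile, defined with the contractile range, *Actg2* stood at 2.71 and *Myocd* at 0.832. *Mustn1* was 16.9-fold, 31.6-fold and 12.7-fold higher, and *Map3k7cl* 21.8-fold, 33.4-fold and 7.90-fold. Cell cycle genes were also higher in 6 of 12 tested, with a median ratio of 2.16 against 1.01 over all genes. Over all genes, 4.46% were higher. *Ccnd1* (cyclin D1) was higher by 11.3-fold, 35.6-fold and 12.8-fold. Against all other cells *Ccnd1* alone of 13 cell cycle genes tested was higher, and none was lower. The list summed to 10.5, 6.04 and 5.94 in the members and to 3.18, 2.56 and 2.67 in the contractile cells. In endothelial cells it summed to 10.2, 7.95 and 13.4.

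The genes lower in the members were led by genes of stroma. The fibroblast and stroma markers summed to 79.2, 85.0 and 64.8 in the contractile cells of sets 1, 2 and 3. The sums were 89.9, 89.3 and 59.6 in fibroblast and stroma cells and 24.2, 20.1 and 16.7 in the members. *Mfap5*, a protein of elastic microfibrils, had 2, 9 and 5 UMIs in the members of sets 1, 2 and 3 and stood at 5.53, 9.69 and 6.91 in the contractile cells. *Cxcl14*, a chemokine, was at 0.0557, 0.170 and 0.407, against 10.2, 9.98 and 10.4. *Ogn*, a small proteoglycan, was at 0.841, 0.673 and 0.286, against 14.3, 15.8 and 6.17. The Wnt antagonists *Sfrp1* and *Frzb* were also among the 10 of smallest ratio, with *Mfap4*, *Serpinf1*, *Nupr1* and *Itih5*. Of 12 stromal markers tested 8 were lower and none higher, among them *Pdgfra* (0.164-fold, 0.0993-fold and 0.105-fold) and *Col1a1* (0.114-fold, 0.0701-fold and 0.107-fold).

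**Figure D2:**
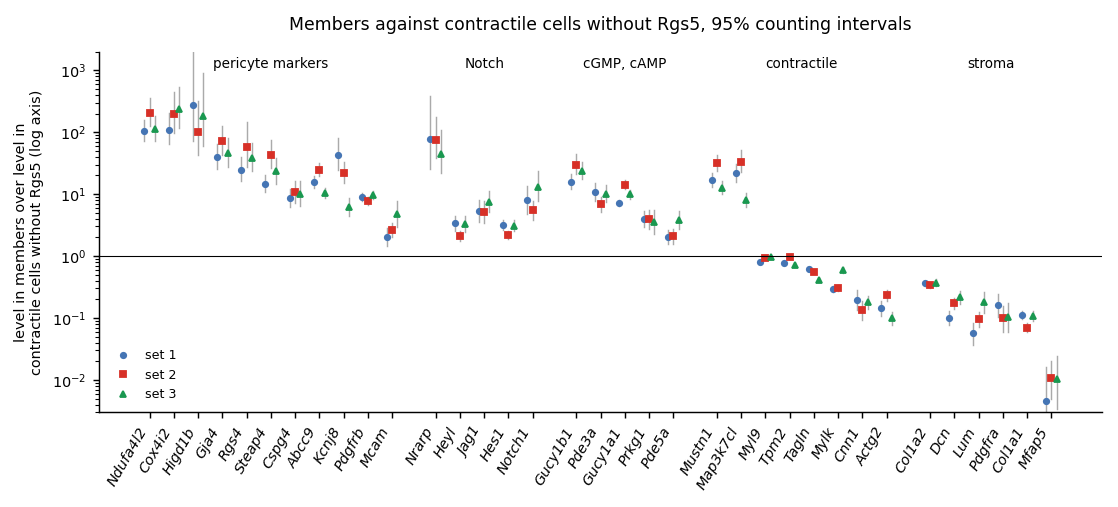
Ratio of the level in the members to the level in contractile cells without *Rgs5* (log axis), with 1 point per barcode set and 95% counting intervals as bars; an end of the set 1 interval of *Higd1b* and of *Mfap5* lies beyond the axis. The pericyte, Notch and cGMP genes drawn lie above 1 in all 3 sets, *Myl9* lies just under 1, and *Cnn1*, *Actg2* and the stromal genes lie below 1.

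The members differed widely among themselves in contractile content. The levels of *Acta2*, *Tagln*, *Myh11*, *Cnn1* and *Myl9* were summed for each cell. The sum ranged from 0 to 812, with medians of 17.5, 17.1 and 52.3 in sets 1, 2 and 3, and 7, 20 and 5 members had none of these genes. The members of each set were ordered by this sum and cut into 3 equal groups of 113, 112 and 111 cells in all, called the lowest, middle and highest tertile. The tertiles are ranges of a continuous measure and not cell types, and 83 members lay within 1.5 times of a cut. Their median depths were 4212, 4866 and 6201 UMIs, and *Rgs5* itself stood at 18.6, 28.7 and 50.9. Of 5669 genes tested outside the 5 summed and the 7 of the rule, 450 (7.94%) were higher in the highest than in the lowest tertile and 736 (13.0%) were lower. The genes named here that are in no list were chosen after their values were seen.

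At the low end stood genes of the ATP-sensitive potassium channel. The basement membrane list went both ways, with 8 of 21 genes lower in the highest tertile and 5 higher, the latter being *Col4a5*, *Lama5*, *Lamb2*, *Hspg2* and *Itga7*. *Abcc9* stood at 10.9 in the lowest, 6.75 in the middle and 0.673 in the highest tertile, and *Kcnj8* at 3.86, 1.91 and 0.204. *Cygb*, cytoglobin, stood at 10.4, 7.73 and 0.475. Each of these 3 genes was lower in the highest tertile in all 3 sets, with ratios of 0.0617 (0.0444 to 0.0838), 0.0528 (0.0268 to 0.0947) and 0.0457 (0.0320 to 0.0634). *Pdgfrb* stood at 13.6, 9.85 and 2.97, and *Col4a1* at 42.0, 33.4 and 10.9. *Fn1*, fibronectin, stood at 6.4, 4.91 and 0.957, *Lamb1* at 3.34, 2.30 and 0.407, and *Col15a1* at 3.45, 2.66 and 0.251. *Plat*, the tissue plasminogen activator, stood at 6.62, 3.08 and 1.91. The proliferation gene *Mki67* stood at 0.830, 0.872 and 0.129.

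At the high end stood contractile genes outside the sum and the matrix genes *Eln*, *Lox* and *Acan*. *Eln*, elastin, stood at 0.0508, 0.266 and 4.57, a ratio of 89.8 (30.5 to 438). Only 61 of the 336 members held *Eln*, and 1 cell held 22.2% of its UMIs and 48.9% of those of set 2. *Lox*, which cross-links elastin and collagen, stood at 0.0110, 0.0813 and 1.16. *Mustn1* stood at 0.411, 1.87 and 16.4, and *Tpm2*, a tropomyosin, at 2.17, 4.64 and 26.7. *Actg2* and *Lmod1*, an actin nucleator of smooth muscle, had no UMI in the lowest tertile and stood at 2.71 and 2.34 in the highest, at least 37.6-fold and 32.5-fold higher with the lowest tertile placed at 3 UMIs. *Myocd* stood at 0.0157, 0.0616 and 0.832. *Acan*, aggrecan, was found in no member of the lowest or middle tertile and stood at 1.44 in the highest. Stromal markers moved with the tertiles too, since 5 of 10 tested were lower in the highest tertile, and their part was not tested. Of 20 contractile genes tested outside the sum, 17 were higher, *Itga8* was lower, and *Smtn* and *Cald1* were neither. The tertiles were cut on other genes of the same list. Genes without a UMI in the lowest tertile, such as *Actg2* and *Lmod1*, were tested only through the highest. This count is therefore only described.

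Signalling genes were spread along this range. The ligand *Jag1* stood at 0.406, 0.634 and 1.98, and the targets *Hey2* and *Nrarp* at 0.189, 0.212 and 0.804 and at 1.12, 1.72 and 2.92, whereas *Heyl*, another target, stood at 3.05, 1.40 and 0.888. *Pdgfa* stood at 0.128, 0.383 and 1.62, opposite to *Pdgfrb*. *Ednrb* stood at 0.252, 0.553 and 2.32, while *Ednra* stood at 1.45, 1.57 and 1.40. *Pde3a* stood at 0.797, 1.46 and 4.11, and *Gucy1a1* at 11.9, 9.0 and 5.51. *Kcna5* and *Kcnmb1*, channels of arterial muscle, stood at 0, 0.00671 and 0.620 and at 0.0438, 0.150 and 0.598. Of the pericyte list, 6 of 13 genes tested were lower in the highest tertile, *Mcam* was higher, and *Higd1b* (ratio 0.987, 0.757 to 1.29), *Cspg4* (1.12, 0.839 to 1.51), *Rgs4* (1.13, 0.888 to 1.44), *Gja4* (1.15, 0.940 to 1.40), *Ndufa4l2* and *Cox4i2* were neither.

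The ends of the range overlapped in single cells. At least 1 UMI of *Abcc9* was found in 105, 97 and 30 members of the lowest, middle and highest tertile, and of *Mustn1* in 13, 42 and 107. Both genes were found in 71 of the 336 members, of which 32 lay in the middle tertile, and neither in 13. Cells were not thinned for these counts. Before thinning, 4.01%, 2.977% and 5.935% of endothelial cells of sets 1, 2 and 3 held *Abcc9*. Doublets were not called, and the part of doublets, depth and free RNA in these 71 cells was not tested.

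**Figure D3:**
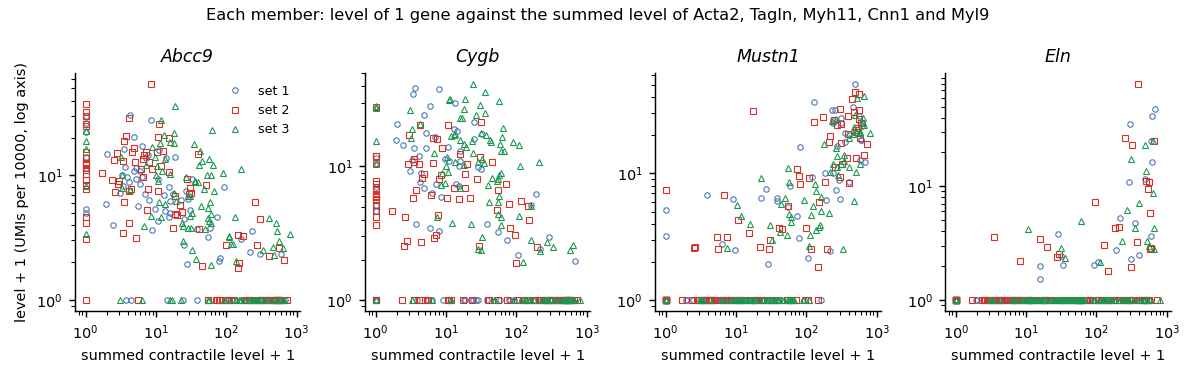
Level of *Abcc9*, *Cygb*, *Mustn1* and *Eln* in each of the 336 members (UMIs per 10000 plus 1, log axis) against the summed level of the 5 contractile genes plus 1 (log axis), with 1 symbol per barcode set; cells without a UMI lie on the line at 1. *Abcc9* and *Cygb* are seen mainly in members with a low sum, and *Mustn1* and *Eln* mainly in members with a high sum, with a stretch in between where both kinds of gene occur.

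**Figure D4:**
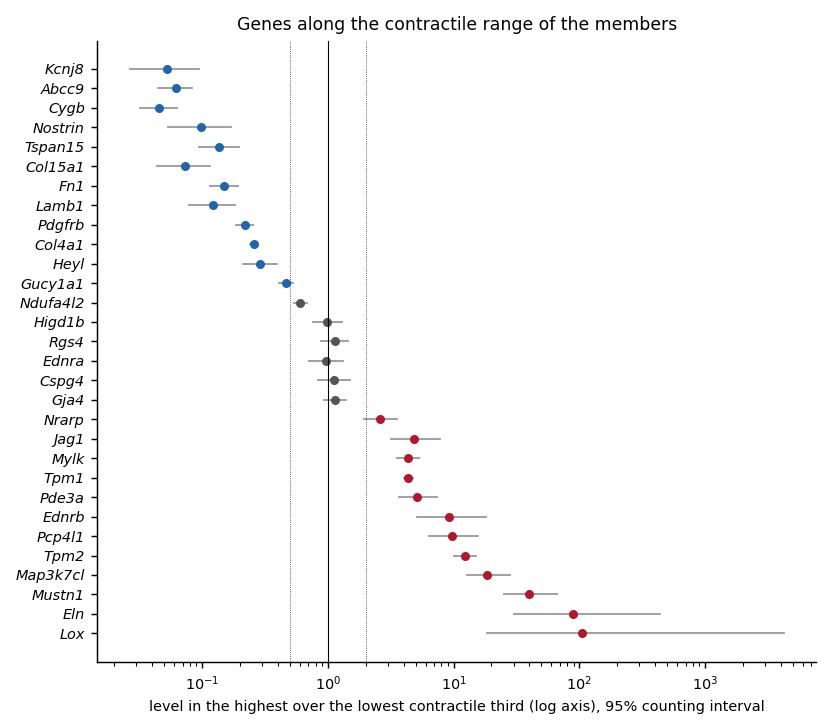
Ratio of the level in the highest tertile to the level in the lowest tertile of the contractile sum for 30 genes (log axis), with 95% counting intervals as bars and dotted lines at 0.5 and 2. Genes in blue were lower, genes in red higher and genes in grey neither; *Higd1b*, *Rgs4*, *Ednra*, *Cspg4* and *Gja4* lie close to 1.

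Many contractile genes are bound near their start by serum response factor, with myocardin, at the CArG box. RefSeq promoters (250 bases before and 50 after the start, GRCm38.p6) were searched for this box on both strands. It occurred in 535 of 32851 promoters (1.63%), or in 1.81% of genes. Of the contractile list, 20 of 25 genes had a promoter in the table, and 3 of these genes (15%), or 4 of their 23 promoters (17.4%), held a box, namely *Myl9*, *Myl6* and *Ldb3*. Of the pericyte list, 13 of 17 genes had a promoter and none held a box in this window. The boxes are shown because *Myl6* and *Ldb3* were higher in the highest tertile and *Myl9* is 1 of the genes of the sum. They stand in capitals, 5′ to 3′ on the strand of the gene, upstream of its start, at chr2:156775278-156775337 (plus strand), chr10:128493025-128493084 (minus) and chr14:34588682-34588741 (minus).
Myl9: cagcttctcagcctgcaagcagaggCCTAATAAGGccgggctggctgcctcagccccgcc
Myl6: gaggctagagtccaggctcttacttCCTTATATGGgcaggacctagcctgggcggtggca
Ldb3: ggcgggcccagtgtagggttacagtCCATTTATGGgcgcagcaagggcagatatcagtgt
The boxes end 151 bases before the start of *Myl9*, 40 bases before that of *Myl6*, and 25 and 99 bases before both starts listed for *Ldb3*. A match is a stretch of letters and not a measured site.

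The members were then compared between barcode sets. The comparisons of set 2 with set 1 and of set 3 with set 2 share the members of set 2. Between sets 2 and 1, 213 of 5837 genes (3.65%) were at least 2-fold higher in set 2 and 224 (3.84%) were 2-fold lower. Between sets 3 and 2, 302 of 5810 genes (5.20%) were higher in set 3 and 391 (6.73%) were lower. Granulosa RNA moved with the sets, as given above, and so did the contractile sum. When only the 149 members without a UMI of *Inha* and *Cyp17a1* were used, 66 genes were higher and 65 lower between sets 2 and 1, of which 31 and 5 were among those counted with all members. Between sets 3 and 2 these members gave 280 and 204 genes, of which 98 and 80 were among those counted with all members.

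None of 13 pericyte genes tested and none of 24 contractile genes tested differed 2-fold between sets 2 and 1. Over all genes tested, 3.65% were higher and 3.84% lower, so none among so few genes is close to that share. Between sets 3 and 2, 3 of 13 pericyte genes tested (*Mcam*, *P2ry14* and *Art3*) were lower in set 3 and none was higher. Their median ratio was 0.742 against 1.00 over all genes tested, of which 5.20% were higher and 6.73% lower. Of 23 contractile genes tested, *Cnn1* was higher and *Nrip2* lower, with a median ratio of 0.921. The spread over cells did differ: the median contractile sum was 52.3 in set 3 against 17.5 and 17.1 in sets 1 and 2, and with cuts common to all sets 40.2%, 45% and 16.0% of the members fell in the lowest range. *Pdgfrb* in set 2 was 0.992-fold its level in set 1 (0.873 to 1.13), and in set 3 it was 1.11-fold its level in set 2 (0.978 to 1.26). Of the 20 leading genes, *Olfr558* (0.492-fold), *Slc38a11* (0.460-fold) and *Rergl* (0.495-fold) were lower in set 2 than in set 1, and *Rergl* (0.214-fold), *Inpp4b* (0.354-fold) and *Nrarp* were lower in set 3 than in set 2. *Rergl* was held by 27, 32 and 13 members.

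Several genes of the hCG, TGF-beta and immediate early lists were highest in set 2. *Cebpb*, a transcription factor, stood at 2.63, 13.9 and 2.24 in sets 1, 2 and 3, and 60, 114 and 60 members held it. *Id3*, an inhibitor of basic helix-loop-helix factors, stood at 12.2, 33.1 and 19.5, while in the other cells it stood at 8.10, 11.8 and 5.94. *Nr4a1*, an orphan nuclear receptor, stood at 1.65, 4.16 and 0.758, and *Fosl2*, the AP-1 member the study is about, at 1.08, 3.09 and 0.624. The other cells had *Cebpb* at 3.39, 14.1 and 5.08, *Nr4a1* at 1.21, 4.56 and 0.848, and *Fosl2* at 2.17, 4.09 and 1.26, so for these genes the other cells were also highest in set 2. Of the immediate early list, 6 of 21 genes were higher in set 2 than in set 1, 15 were neither and none was lower, with a median ratio of 1.35 against 0.956 over all genes. *Fos* itself was 0.843-fold (0.775 to 0.918), and the list summed to 143, 160 and 111 in sets 1, 2 and 3.

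Of the list of genes known to respond to hCG in the ovary, 8 of 9 tested were higher in set 2 than in set 1. Over all genes tested, 3.65% were higher. The 9 genes had a median ratio of 5.28 against 0.956 over all genes. The list was chosen with earlier results of these data known, and 9 of its 18 genes were tested. A listed gene with few UMIs in set 1, such as *Areg* or *Ereg*, could be tested only through its UMIs in set 2. The count and the median are therefore only described. *Areg* and *Ereg*, ligands of the EGF receptor, had few UMIs: *Areg* had 0, 45 and 7 in sets 1, 2 and 3, and *Ereg* had 2, 30 and 6. In set 2, 1 cell held 21 of the 45 *Areg* UMIs. In the other cells *Areg* stood at 0.0216, 7.70 and 0.131, so its level in the members of set 2 (0.682) was far below that around them. *Pde10a*, a phosphodiesterase, stood at 0.219, 3.85 and 0.740 in the members and at 0.202, 11.7 and 0.553 in the other cells. The 18 hCG genes summed to 7.33, 28.1 and 9.27 in the members and to 8.30, 27.5 and 10.6 in fibroblast and stroma cells. They summed to 4.83, 17.2 and 6.79 in contractile cells without *Rgs5*, 5.43, 10.6 and 5.17 in endothelial cells and 9.89, 50.8 and 22.4 in all other cells, so each group of cells was highest in set 2. The part of free granulosa RNA in the members' values was not tested. *Adamts1* and *Adamts4*, proteases of the matrix, stood at 2.23, 6.20 and 3.58 and at 0.253, 1.41 and 0.524 in the members, above the 0.885, 3.31 and 1.61 and the 0.106, 0.533 and 0.206 of the other cells. *Plat* stood at 1.91, 5.63 and 3.73, against 0.166, 0.522 and 0.477. *Stc1*, stanniocalcin 1, stood at 0.161, 1.2 and 1.13 in the members and at 0.365, 0.275 and 0.496 in the other cells, so here the members of set 2 were higher and the other cells were not.

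The other genes of largest ratio of set 2 to set 1 were *Crem*, *Tnfaip6*, *Rgs2*, *Apold1*, *Nr4a3* and *Fdx1*. *Rgs2*, like *Rgs5* a regulator of G protein signalling, stood at 0.521, 3.61 and 1.17, and *Rgs3* ran from 3.44 to 1.22 to 0.444. In the other cells *Rgs3* stood at 0.339, 0.194 and 0.164. *Fdx1*, the electron donor of steroid synthesis, stood at 0.887, 4.54 and 1.83 in the members and at 5.06, 27.8 and 8.64 in the other cells.

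The 10 genes of smallest ratio of set 2 to set 1 were mostly genes of dividing cells. *Hist1h1b*, a linker histone, stood at 1.70, 0.436 and 0.408, and *Birc5*, survivin, at 1.53, 0.470 and 0.771. *Mki67* stood at 1.01, 0.503 and 0.399. Few members carried these genes: 18, 8 and 9 held *Hist1h1b* and 22, 12 and 14 held *Mki67*, and 1 cell held 34.9% of the *Mki67* UMIs of set 2. Of the cell cycle list, 5 of 11 genes were lower in set 2 and none was higher, with a median ratio of 0.5345 against 0.956 over all genes. Without the members that held *Inha* or *Cyp17a1*, *Hist1h1b*, *Rrm2* and *Hist1h2ae* were not lower but 1.98-fold, 1.33-fold and 1.04-fold in set 2, and 5 of the 224 lower genes were still counted. Histone genes such as *Hist1h2ap* and *Hist1h2ae* have near-identical copies, so their counts are uncertain. *Anln*, *Rrm2*, *Cep55*, *Hist1h1e*, *Fibin* and *Rgs3* were the others of the 10.

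Set 3 was marked by *Timp1*, *Procr* and *Col18a1*. *Timp1*, an inhibitor of matrix proteases, stood at 0.344, 0.278 and 3.42, and 14, 13 and 77 members held it. The other cells had it at 0.407, 0.493 and 8.76. *Procr*, the endothelial protein C receptor, stood at 0.375, 0.819 and 2.85, against 0.201, 0.729 and 0.894. *Col18a1* stood at 2.05, 1.48 and 4.13, and *Tgfbi*, a matrix protein, at 0.0296, 0.0678 and 0.759. *Tgfbi* did not move this way in the other cells, where it stood at 0.237, 0.253 and 0.167. *Sult1e1*, *Nts* and *Rhox8*, with 1, 6 and 2 UMIs in the members of set 2, stood in set 3 at 0.645, 2.01 and 0.662. The other cells of set 3 had them at 9.46, 14.2 and 8.14. *Trf*, *Mt3* and *Col13a1* were also among the 10 of largest ratio of set 3 to set 2.

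Lower in set 3 than in set 2 were the genes that had been high in set 2, among them *Cebpb* (0.161-fold, 0.133 to 0.194), *Nr4a1* (0.182-fold), *Ereg*, *Areg* and *Pde10a*, and also *Nap1l5*, *Inhba*, *Nr5a2*, *Plk2* and *Rasd1*. *Inhba* and *Nr5a2* are granulosa genes and stood at 17.3 and 5.02 in the other cells of set 2, against 1.24 and 0.853 in the members. *Rasd1*, a Ras-related protein induced by glucocorticoid, stood at 1.25, 3.15 and 0.403 in the members and at 0.935, 0.974 and 0.275 in the other cells. *Cxcl12*, a chemokine of perivascular stroma, stood at 0.626, 0.797 and 0.120 in the members and at 0.692, 0.721 and 1.00 in the other cells. *Nrarp* was 0.374-fold (0.282 to 0.490) and *Lama2*, a laminin chain, 0.439-fold (0.302 to 0.629).

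**Figure D5:**
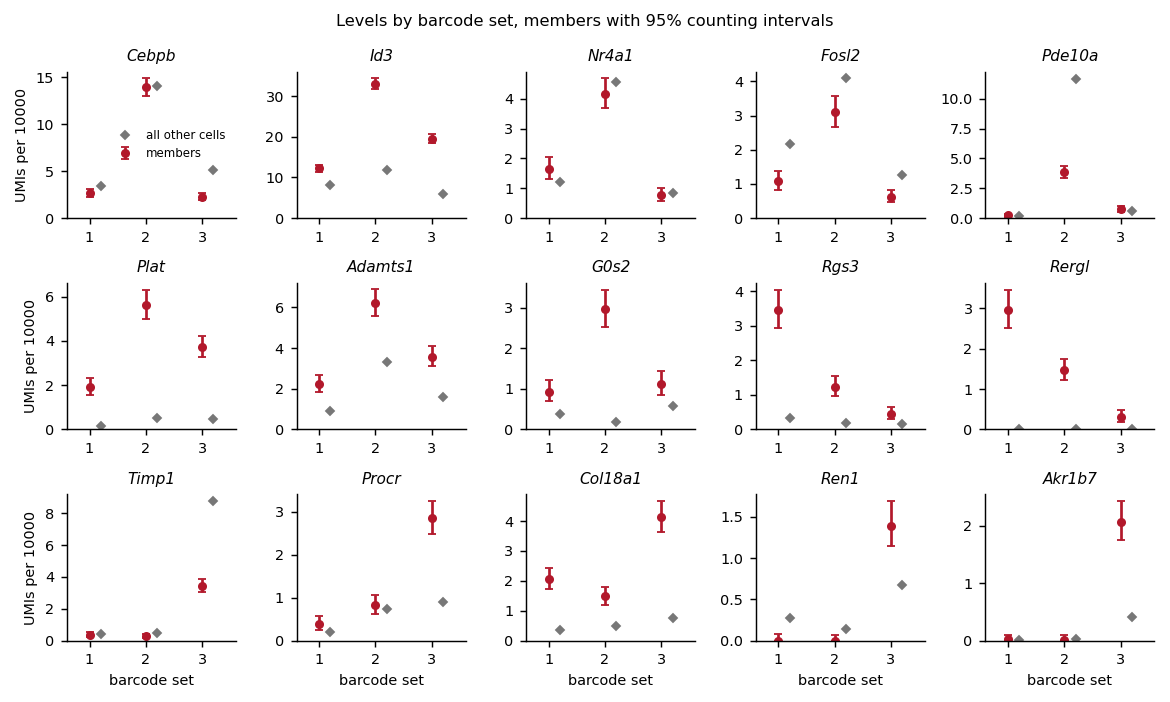
Level (UMIs per 10000) of 15 genes by barcode set, with members as circles with 95% counting intervals and all other cells as diamonds. *Cebpb*, *Id3*, *Nr4a1*, *Fosl2*, *Pde10a*, *Plat*, *Adamts1* and *G0s2* were highest in set 2 in the members, *Rgs3* and *Rergl* were highest in set 1, and *Timp1*, *Procr*, *Col18a1*, *Ren1* and *Akr1b7* were highest in set 3.

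*Ren1* and *Akr1b7* appeared in the members of set 3 alone, apart from single UMIs. *Ren1* encodes renin, the protease that starts the angiotensin cascade, and had 0, 0 and 105 UMIs in sets 1, 2 and 3. Its level in set 3 was 1.40, at least 23.8-fold that of set 2 with set 2 placed at 3 UMIs. The 105 UMIs lay in 21 of 119 members (17.6%), and the cell with most held 20 of them. In sets 1 and 2 no member held it, which allows a share of up to 3.09% of 97 and 2.50% of 120 cells with a UMI. After thinning to 3000 UMIs, *Ren1* was found in 17.9% of the members of set 3 (10.8 to 27.1%), 2.46% of the contractile cells without *Rgs5* and 0.351% of the endothelial cells of that set. *Akr1b7*, an aldose reductase, had 1, 1 and 149 UMIs, and 20 members of set 3 held it, 1 of which had 32.9% of the UMIs. After thinning, it was found in 12.6% of the members of set 3 (6.70 to 21.0%), 2.46% of the contractile cells and 1.40% of the endothelial cells. Both genes were found in 7 members. Of the 21 members with *Ren1*, 10 lay in the highest and 7 in the lowest contractile tertile, and of the 20 with *Akr1b7*, 14 lay in the highest and 1 in the lowest. The other cells had *Ren1* at 0.275, 0.145 and 0.670 and *Akr1b7* at 0.00485, 0.0234 and 0.418, so both were also highest there in set 3, at lower levels than in the members. Some mouse strains carry a second renin gene of near-identical sequence, and reads of both could be counted together.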

How the data were processed

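Per the labels, droplet libraries of mouse ovary were processed with Cell Ranger and Seurat on mm10 (versions not given in the sources used here). The authors deposited 1 table of 24958 genes in 31776 cells in natural log units, ln(1 + UMIs per 10000 UMIs of the cell). Whole UMIs were recovered from these values: 100% were whole within 0.01 UMI. Levels, ratios and exact 95% intervals were computed with python 3.11.15, numpy 2.4.6 and scipy 1.17.1, and figures with matplotlib 3.10.9. The counting of genes past a fold was run on simulated Poisson counts in which a gene had the same level in all cells of a set. The simulation therefore does not cover variation between cells.

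A gene was counted at a ratio of at least 2, or at most 0.5, with 30 or more UMIs over both groups. A group at 0 was placed at 3 UMIs. No doublet caller was run and no doublets were removed. No p-value was computed, because each time point has 1 library and cells could not be assigned to libraries.

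The members and the 31 gene lists were chosen with earlier results of these data known. Beside list genes, the text names the 20 genes of largest ratio to other cells and 10 per direction in each other comparison, ranked by the bound of the interval nearest to 1. A gene that this rule selects is not reported here. The contractile tertiles, the genes of no list given with them, and *Pcdh18*, *Emp1*, *G0s2*, *Procr*, *Rergl* and *Cxcl12* between sets were chosen after values were seen. Alternatives were other UMI minimums, thinning, stricter gates, other scaling and leaving out a set.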

Additional observations from a re-analysis of the deposited data

Results flagged for a closer look

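In 3 genes the members and the other cells moved in opposite directions between barcode sets, each by at least 2-fold. The members' counting interval also had to lie wholly beyond 1.5-fold. Genes with an interval that reached nearer to 1 were not counted. The difference was not tested, since each set gives 1 value per group of cells. *Pcdh18*, a protocadherin, stood at 0.807 in the members of set 1, 0.321 in set 2 and 1.18 in set 3. Its ratio of set 2 to set 1 was 0.398 (0.237 to 0.653) in the members and 2.12 in the other cells, and its ratio of set 3 to set 2 was 3.67 (2.30 to 6.04) in the members and 0.420 in the other cells. *Emp1*, a membrane protein, was 0.411-fold (0.267 to 0.620) in set 2 against set 1 in the members and 2.03-fold in the other cells. *G0s2*, an inhibitor of triglyceride lipase, was 0.3745-fold (0.272 to 0.508) in set 3 against set 2 in the members and 2.99-fold in the other cells. These ratios rest on 25 to 170 UMIs per set in the members.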

How the results depend on the processing

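Under the alternatives, 52 recomputed counts of genes or members stayed within 1.5 times of the reported count and 23 did not. Against all other cells, only leaving out set 3 moved the 729 higher genes past that, to 1103. Requiring at least 10 UMIs in the members of each set, chosen after seeing the data, left 528 of the 729. Against contractile cells without *Rgs5*, the 363 higher genes became 160 with a minimum of 100 UMIs, 580 with 10 and 189 after thinning to 3000 UMIs. The 317 lower genes became 156 with 100 UMIs, 177 after thinning, 211 with only the members without *Inha* and *Cyp17a1* UMIs, and 520 without set 3. Between sets 2 and 1, the 213 higher and 224 lower genes became 39 and 23 with 100 UMIs, 619 and 781 with 10, 92 and 79 after thinning, and 66 and 65 with the members without *Inha* and *Cyp17a1* UMIs. Between sets 3 and 2, the 302 higher and 391 lower genes became 57 and 67 with 100 UMIs, 763 and 1007 with 10, and 147 and 184 after thinning, and the lower genes became 204 with the members without *Inha* and *Cyp17a1* UMIs. Of the 92 higher and 79 lower genes after thinning between sets 2 and 1, 52 and 30 were among those reported. Between sets 3 and 2, 77 of the 147 and 94 of the 184 were. Counts that stayed within 1.5 times did not always hold the same genes. Of the 224 lower genes between sets 2 and 1, 119 were counted again with *Rgs5* at 2 or above in the members. Without the deepest members 120 were, and with UMIs summed over cells 144. Of the 729 genes higher than in all other cells, these 3 changes kept 649, 691 and 664. The UMI minimum changes how many genes are tested and thinning how many UMIs. For the other changes the cause was not tested. Giving the 3 contractile ranges equal weight, chosen after seeing the data, gave 217, 241, 343 and 417 genes for these 4 counts between sets.

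Of the recomputed ratios of 80 named genes, 757 stayed within the counting interval of the reported ratio, 80 left it without turning, and 3 turned. Those were *Hist1h1b* (1.98), *Rrm2* (1.33) and *Hist1h2ae* (1.04) between sets 2 and 1 in the members without *Inha* and *Cyp17a1* UMIs. No paired analysis was possible because no result comes from a test and each time point has 1 library. Depth limits the comparisons between sets: a gene with no UMI in the members of a set may still have a level of up to 0.0671, 0.0587 or 0.0601 in sets 1, 2 and 3.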
